A study of Mus musculus with 11 samples.

Results

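Cohesin was found on 2341 stretches of DNA without a called peak of acetylated lysine 27 of histone H3 (H3K27ac). All lay within 10000 bp of acetylated chromatin in wild-type (WT) thymocytes. They are 15.8% of the 14848 reproducible Smc1a sites of the series, and the same rule on the peaks of Smc1a replicate 1 alone would give 3730. A reproducible site is a merged region with a peak in both Smc1a libraries. It was counted as flanking if it overlapped no peak of any of the 4 H3K27ac libraries and if a merged WT H3K27ac region, with a peak in both WT libraries, lay at most 10000 bp away. The remaining sites were 4081 that overlapped an H3K27ac peak of at least 1 library, 6400 that lay over 10000 and up to 100000 bp from such a WT region, and 2026 that lay farther away.

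Cohesin is a ring-shaped protein complex that holds DNA segments together and, in interphase, extrudes chromatin loops. Smc1a is one of its long coiled-coil subunits and Rad21 is the subunit that closes the ring. Loop extrusion is commonly halted at sites bound by the zinc finger protein CTCF, and cohesin is also present at active enhancers and promoters, which carry H3K27ac. Cohesin sites that sit beside, rather than in, acetylated chromatin are therefore of interest as places where a loop may be anchored close to a regulatory element.

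The cells were sorted CD4+ CD8+ double positive thymocytes of mice aged 6 weeks. Chromatin immunoprecipitation with sequencing was done for H3K27ac in 2 wild-type control libraries and 2 libraries of Rad21-/- littermates (KO), in which a floxed Rad21 allele had been deleted by a Cre transgene driven by Cd4, and for Smc1a in 2 WT libraries. Because Smc1a was mapped in WT cells alone, the sites are WT sites, and whether cohesin was lost from them after Rad21 deletion is not part of these data. The controls are labelled wild type, with no alleles given. Nothing in the labels ties the libraries to separate mice, so p-values measure only the spread between these libraries, which may be technical.

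The files hold peaks, not reads, so the depth of each library is unknown and a missing peak is a missing call. WT replicate 2 stood apart, with 15686 H3K27ac peaks against 19503 to 21973 in the other 3 H3K27ac libraries, and it covered 45.6 Mb against 47.6 to 56.3 Mb. Smc1a replicate 1 held 25484 peaks and replicate 2 held 17726. Several results that rest on WT replicate 2 are given with and without it. The others are given with it alone, so their dependence on it is not shown.

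Flanking sites were spread over the whole 10000 bp. The median distance to the WT region was 4750 bp (quartiles 2425 and 7223 bp), 241 sites (10.3%) lay within 1000 bp and 1110 (47.4%) lay beyond 5000 bp. The density of all reproducible sites with a midpoint outside every H3K27ac peak was computed per Mb of DNA outside these peaks. It was 8.71 sites per Mb within 1000 bp of a WT region and 11.5 at 1000 to 2500 bp. It then stayed between 13.0 and 14.2 sites per Mb from 2500 to 20000 bp, and was 10.3 at 20000 to 50000 bp and 6.77 at 50000 to 100000 bp. Inside the WT regions themselves the density was 66.6 sites per Mb. A site whose midpoint lies close to a peak tends to overlap it, which 61 of the 193 sites placed in the first 1000 bp did. The density was therefore also computed for sites that overlapped no peak, per Mb of DNA with room for a site of their widths. It was then 10.5 sites per Mb within 1000 bp (132 sites in 12.5 Mb) and 14.2 at 5000 to 7500 bp (615 sites in 43.2 Mb), so the gap between these stretches was smaller, and it was not tested. With the peaks of Smc1a replicate 1 alone the densities by midpoint were 15.2 and 22.0 sites per Mb. The DNA counted includes sequence to which reads cannot be mapped, and its part in these densities was not tested.

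**Figure D1:**
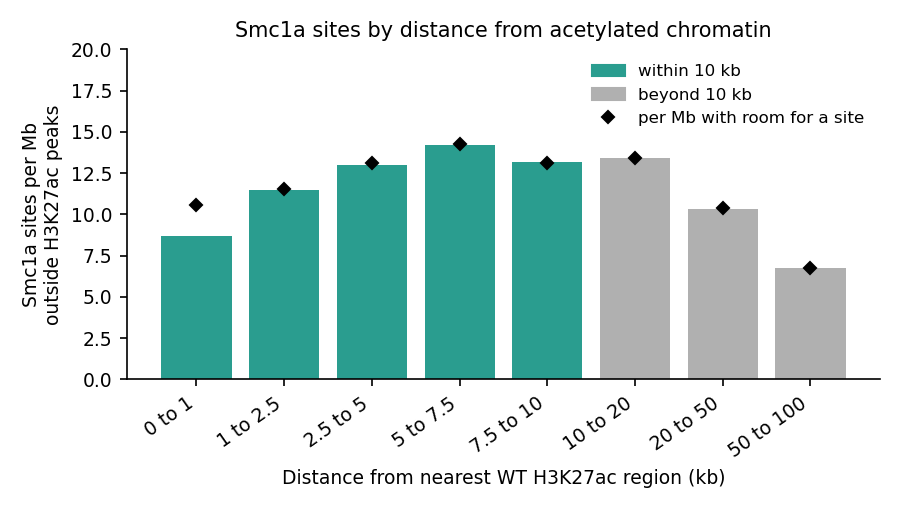
Reproducible Smc1a sites per Mb of DNA outside H3K27ac peaks (bars, y axis from 0) by distance in kb from the nearest H3K27ac region called in both WT libraries. Green bars cover the 10 kb used to choose the flanking sites, and black diamonds are the density of sites overlapping no peak per Mb with room for such a site, which in the first kb is 10.5 per Mb against 8.71 for the bar and elsewhere lies close to the bars.

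The threshold of 10000 bp fell in a stretch of even density. The farthest flanking sites were chr6:146611030-146611815, chr16:24874179-24874912 and chr10:25134758-25135612 (mm9), at 9996, 9991 and 9990 bp. The first sites left out were chr7:134208861-134209630, chr4:32926647-32927321 and chr17:29740039-29740856, at 10010, 10020 and 10021 bp. At the site on chromosome 6 the nearest peak lay at 9996 bp in WT replicate 1, 10182 bp in WT replicate 2, 9851 bp in KO replicate 1 and 9985 bp in KO replicate 2, so the 4 lists placed this edge close together, on both sides of the threshold.

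Most flanking sites had acetylation on 1 side. A WT region lay within 10000 bp on both sides of 226 sites (9.65%), to the left of 1051 and to the right of 1064. For the sites with acetylation on 1 side, the nearest WT region on the other side was at a median of 66727 bp (quartiles 28231.5 and 168473 bp). For the 226 enclosed sites the gap between the 2 WT regions, the site included, had a median of 10013 bp and ran from 1451 to 19418 bp. The narrowest gap was at chr1:87634498-87635289, where the WT regions lay 635 bp to the left of the site and 24 bp to its right. There the nearest peak lay at 66, 24, 42 and 12 bp in WT replicates 1 and 2 and KO replicates 1 and 2. Acetylation thus came close to the site in all 4 libraries, and that it reached the site in none is fixed by the rule. The next narrowest gaps were at chr7:29578804-29579255 (2187 bp), chr2:120273080-120273462 (2801 bp), chr9:121588434-121589262 (2805 bp) and chr4:129259308-129259955 (2894 bp).

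On the mouse chromosomes other than Y, flanking sites were 12.4% (chromosome 12) to 18.8% (chromosome 11) of the reproducible sites. Chromosome Y held no WT region, so none of its 5 sites could be flanking. Another reproducible Smc1a site lay within 10000 bp of 911 flanking sites (38.9%, 95% Wilson interval 37.0 to 40.9, which covers counting error only). This share was 51.9% (50.3 to 53.4) for sites that overlapped an H3K27ac peak, 26.7% (25.6 to 27.8) for sites over 10000 and up to 100000 bp away and 15.8% (14.3 to 17.5) beyond that. Flanking sites thus lay between acetylated and distant sites in how closely they were spaced.

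The score that the authors' peak caller gave each peak did not enter the choice of sites. It was used only as a percentile within its own Smc1a list. Flanking sites had the highest median percentile of the 4 classes in both libraries. In Smc1a replicate 1 the median was 74.4 (quartiles 54.2 and 88.1), against 72.1 for sites over 10000 and up to 100000 bp away, 61.6 for the farthest sites and 58.6 for sites overlapping H3K27ac. In Smc1a replicate 2 the medians were 60.7, 57.3, 50.4 and 58.5 in the same order. The sites at 10000 to 20000 bp, next beyond the flanking sites, differed little from them, with medians of 73.7 and 60.1 and with 22.3% of sites in the top 10% of the replicate 1 list. The quartiles overlapped widely between classes, and the order is a description of these 2 lists, with no test. The share of sites in the top 10% of the list was 21.6% for flanking sites against 18.6% for sites up to 100000 bp away in replicate 1, and 15.0% against 11.5% in replicate 2. Flanking sites were narrower than sites overlapping H3K27ac, with median widths of 773 and 1030 bp, and the farthest sites were the narrowest (669.5 bp).

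**Figure D2:**
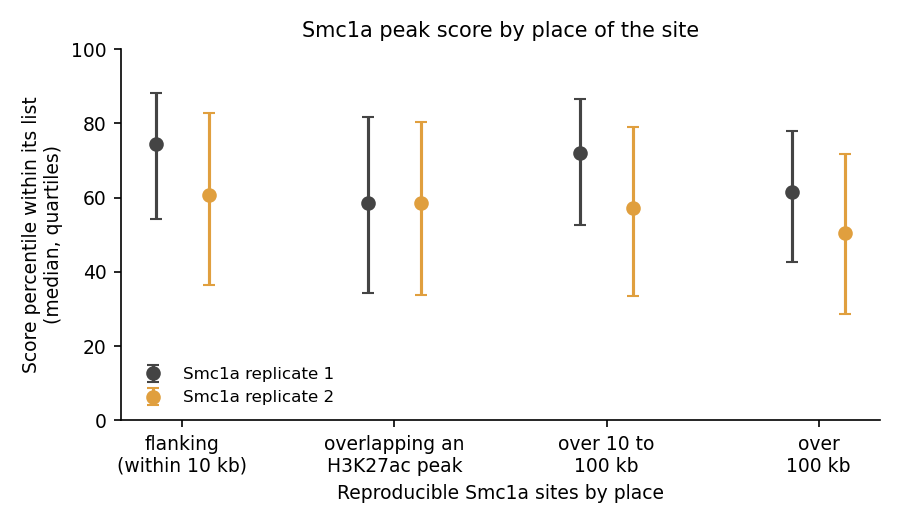
Score percentile of the best peak at each reproducible Smc1a site within its own list (y axis, 0 to 100), by place of the site relative to H3K27ac (x axis). Points are medians and bars run from the lower to the upper quartile over sites, in black for Smc1a replicate 1 and orange for replicate 2; the flanking class has the highest median in each replicate (74.4 and 60.7).

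Peaks in flanking position were also called again more often than peaks in acetylated chromatin. All peaks of each Smc1a list were used here, whether reproducible or not. Of 3730 flanking peaks of Smc1a replicate 1, 63.1% (95% Wilson interval 61.5 to 64.6) were found in replicate 2 as well, against 56.6% (55.5 to 57.8) of peaks overlapping H3K27ac. Of 2642 flanking peaks of replicate 2, 88.7% (87.4 to 89.8) were found in replicate 1 as well, against 76.0% (74.9 to 77.1). For peaks over 10000 and up to 100000 bp away the shares were 60.3% and 90.2%, so the order between flanking peaks and these was not the same in both lists.

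Within the flanking class the score was lowest next to acetylation and followed no steady course beyond. The median percentile was lowest within 1000 bp of the WT region, at 67.5 in Smc1a replicate 1 and 56.7 in replicate 2, and lay between 72.6 and 77.5 and between 57.2 and 64.8 at greater distances. The 5 flanking sites with the highest mean percentile were chr7:80772547-80773957 (scores 2646.57 and 2251.38 in the 2 lists), chr18:38042909-38043780 (2126.97 and 1938.73), chr8:108545857-108546992 (2511.57 and 1461.84), chr11:117218734-117221941 (2440.7 and 1404.41) and chr13:112561221-112561910 (2387.2 and 1374.71). Each had acetylation on 1 side, at 2597 to 7869 bp. At the strongest site, on chromosome 7, the nearest peak was at 7880 and 7869 bp in the WT libraries and at 7740 and 7123 bp in the KO libraries. The WT region nearest to it on the other side was 698019 bp away.

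The longest flanking sites were not all strong in both lists. The longest, chr2:173009177-173012814 (3638 bp), had a percentile of 98.5 in Smc1a replicate 1 and 66.8 in replicate 2. The site chr8:86533624-86536317 (2694 bp) stood at percentiles of 56.5 and 45.7. The other 3 of the 5 longest were chr2:127714325-127717658, chr11:117963859-117966511 and the chromosome 11 site already named among the strongest.

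The WT regions beside flanking sites resembled WT regions at large. A flanking site lay within 10000 bp of 2536 of the 13937 regions called in both WT libraries. Their median length was 2588.5 bp against 2552 bp for all, and their median score percentile was 67.5 against 66.7 in WT replicate 1 and 54.9 against 54.2 in WT replicate 2. Of these regions, 488 (19.2%) also held a Smc1a site inside, against 19.0% of all. They lay in clusters, meaning groups of at least 3 WT regions with gaps of at most 10000 bp, in 22.1% of cases against 27.4% of all. A flanking site stood on both sides of 145 regions, which had a median length of 2597 bp.

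The study deleted Rad21 to ask what cohesin does for gene regulation and the spatial grouping of enhancers, and the KO libraries show whether acetylation beside these sites was still called. In KO cells most of it was. Of the 2536 neighbouring regions, 2302 (90.8%, 95% Wilson interval 89.6 to 91.8) were called in KO replicates 1 and 2 alike, and 85 (3.35%, 2.72 to 4.13) were called in neither. Over all 13937 WT regions the corresponding values were 89% and 4.08%. With the WT regions split by length into 3 groups of like size, the share without a KO peak was 7.48% near flanking sites and 9.01% elsewhere among the shortest, 1.86% and 2.98% in the middle group and 0.927% and 0.687% among the longest. These shares were not tested, and each lies near that of WT regions in general. For the 145 regions with a flanking site on both sides, 6 (4.14%, 1.91 to 8.73) had no KO peak. The share for the 2536 regions depends on how many lists must agree, and it ran from 3.60% to 14.4% when 1 library at a time was left out. It was 6.40% without WT replicate 1, 14.4% without WT replicate 2, 7.19% without KO replicate 1 and 5.41% without KO replicate 2.

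Of the 2341 sites themselves, 2163 (92.4%) had a peak within 10000 bp in both KO libraries, 113 (4.83%) in 1 and 65 (2.78%) in neither. In the WT libraries, 2322 and 2317 sites had such a peak, which the choice of the sites nearly fixes. The same split was not taken over other sites, so whether 2.78% is unusual cannot be read from it. The nearest measure is that of all 13937 WT regions, of which 4.08% had no KO peak on them. The acetylated regions beside the 65 sites were short and weak in WT, with a median length of 1862 bp and median score percentiles of 30.3 and 28.7 in WT replicates 1 and 2. Beside the 2163 sites these values were 2595 bp, 69.1 and 57.6. The Smc1a percentiles of the 65 sites had medians of 66.6 and 55.3, against 74.5 and 60.7. For the 113 sites with a peak in 1 KO library the medians were higher than either, at 76.0 and 65.5. Smc1a score thus followed no steady order over the 3 groups, and it was not tested. The 65 sites also lay farther from the WT region, at a median of 6189 bp against 4685 bp, and so nearer the 10000 bp limit.

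Choosing the sites by WT regions favours acetylation in WT. For a comparison of the genotypes, sites were therefore also chosen on all 4 libraries alike. Of the 10767 reproducible sites that overlapped no H3K27ac peak, 29.8% had a peak within 10000 bp in WT replicate 1, 22.5% in WT replicate 2, 28.0% in KO replicate 1 and 28.4% in KO replicate 2. Both KO values lay between the WT values. The library means were 26.2 ± 5.12% in WT and 28.2 ± 0.256% in KO libraries (SD, n = 2 each), a difference of 2.02 points (two-sided exact permutation test, p = 1; the smallest p that 2 libraries against 2 allow is 0.33). Without WT replicate 2 the difference was -1.66 points (exact permutation test, p = 0.33, the smallest possible). With equal peak numbers it was 0.743 points, with both KO values above both WT values (exact permutation test, p = 0.33).

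A set of 3133 sites had a peak within 10000 bp in at least 2 of the 4 libraries, whichever these were, and held 2329 of the 2341 flanking sites. Over this set the median distance to the nearest peak was 4807 and 6242 bp in the WT lists and 5015 and 5194 bp in the KO libraries, again with both KO values between the WT values (difference -420 bp, exact permutation test, p = 1). Peaks lay on both sides of 14.0% and 7.82% of the sites in WT and of 11.6% and 11.8% in KO libraries (difference 0.814 points, exact permutation test, p = 1). The mean acetylated length within 10000 bp was 2676 and 2149 bp in the WT and 2590 and 2318 bp in the KO libraries (difference 41.4 bp, exact permutation test, p = 1). For each of these measures the WT libraries differed from each other by more than the KO mean differed from the WT mean, and each difference changed sign without WT replicate 2.

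**Figure D3:**
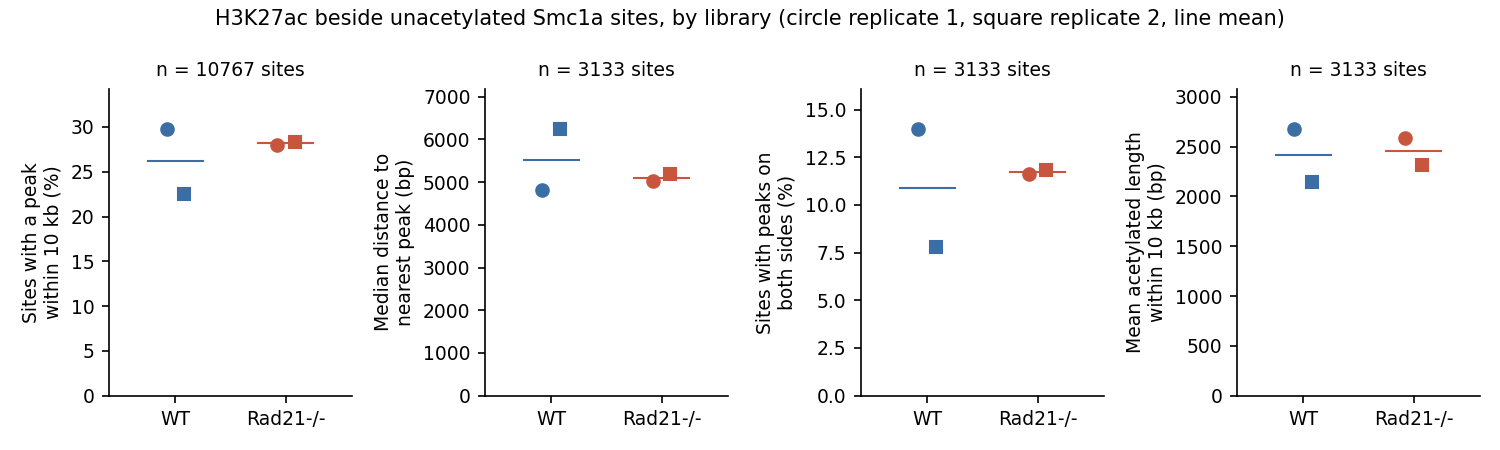
H3K27ac beside Smc1a sites that overlap no H3K27ac peak, by library: share of sites with a peak within 10 kb (%), median distance to the nearest peak (bp), share with peaks on both sides (%) and mean acetylated length within 10 kb (bp), y axes from 0. Circles are replicate 1, squares replicate 2 and lines the means of 2 libraries; in each panel, without scaling to covered length, both KO values lie between the WT values, as in the last, where they are 2590 and 2318 bp against 2676 and 2149 bp.

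The same dependence appeared when the rule was applied to each genotype. With regions called in both KO libraries in place of the WT regions, 2777 sites were flanking, and 2176 sites met both versions (93.0% of the WT set and 78.4% of the KO set). Of the 601 sites found with the KO regions alone, 450 (74.9%) had a peak within 10000 bp in WT replicate 1 but 43 (7.15%) in WT replicate 2. Of the 165 sites found with the WT regions alone, 64 (38.8%) had one in KO replicate 1 and 42 (25.5%) in KO replicate 2. The surplus of sites under the KO version therefore lay mostly where WT replicate 2 alone had no call.

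Site by site, the acetylated length within 10000 bp moved in both directions. Of the flanking sites, 507 (21.7%) had less in each KO library than in either WT library and 399 (17.0%) had more, while the libraries overlapped at the rest. Of the 7742 reproducible sites with any acetylation in that window the shares were 26.3% and 14.9%. Of the 3133 sites chosen on all libraries alike they were 16.6% (519 sites) and 21.9% (687 sites), so the balance turned with the way the sites were chosen. Both counts grew when an H3K27ac library was left out, and the balance depended on which one. Fewer libraries then had to be separated, and the sites were chosen anew, so their number changed too. Under the flanking rule, less and more were counted at 910 and 838 of 2565 sites without WT replicate 1 and 1531 and 798 of 3266 without WT replicate 2. They were 1142 and 578 of 2378 without KO replicate 1, and 680 and 881 of 2374 without KO replicate 2. With Smc1a replicate 2 left out the counts were 830 and 631 of 3730 sites. Under the criterion on all libraries they were 802 and 1390 without WT replicate 1, 1220 and 939 without WT replicate 2, 1155 and 867 without KO replicate 1, 693 and 1254 without KO replicate 2, and 848 and 1150 without Smc1a replicate 2. The totals of the sites chosen on all libraries in each of these settings are not given here, so their counts cannot be read as shares. Because the balance depended on the library left out, no direction is read from any of these counts. The median difference, KO minus WT, was -53 bp over the flanking sites (quartiles -470.5 and 190.5 bp), and it was at most 500 bp in either direction at 1461 of them (62.4%).

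**Figure D4:**
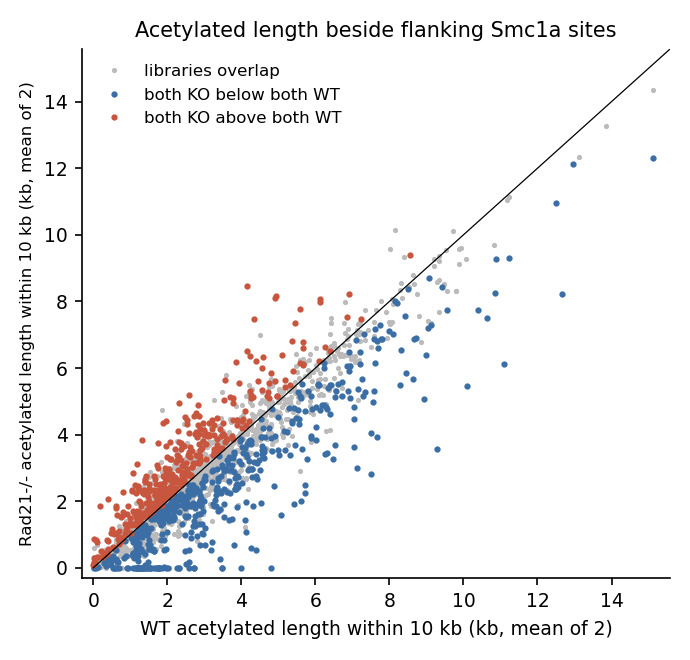
Acetylated length within 10 kb of each of the 2341 flanking Smc1a sites, mean of the 2 WT libraries (x axis, kb) against mean of the 2 Rad21-/- libraries (y axis, kb), with the line of equality. Blue points (507) are sites where both KO libraries lie below both WT libraries, red points (399) the reverse and grey points sites where the libraries overlap; points on the bottom axis had no KO peak within 10 kb.

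Enclosed sites showed the most one-sided counts under the WT rule. Of the 226 flanking sites with a WT region on both sides, 77 (34.1%) had less acetylated length in both KO libraries and 22 (9.73%) had more. These were 100 and 57 without WT replicate 1, 135 and 34 without WT replicate 2, 144 and 31 without KO replicate 1, and 90 and 59 without KO replicate 2. Of the 2115 sites with a WT region on 1 side the counts were 430 (20.3%) and 377 (17.8%). The rule asks for more WT acetylation at enclosed sites, so these counts are read beside the 401 sites with peaks on both sides in at least 2 libraries of any genotype. There 85 (21.2%) had less and 75 (18.7%) more, and the balance again turned with single libraries (114 and 178 without WT replicate 1, 207 and 98 without WT replicate 2, 172 and 102 without KO replicate 1, 110 and 138 without KO replicate 2). Neither share moved steadily with the strength of the Smc1a peak, but the share with more acetylated length was lowest at the strongest sites. In 4 groups of like size of the 3133 sites, from the weakest to the strongest by mean score percentile, the share with less acetylated length was 17.3%, 16.7%, 14.3% and 17.9%, and the share with more was 23.0%, 23.6%, 24.9% and 16.2%. In 4 such groups of the flanking sites, the share with less was 22.7%, 22.1%, 19.8% and 22.1%. The share with more was 17.7%, 16.8%, 20.3% and 13.3%. These shares were not tested.

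Most sites kept the same side or sides of acetylation. Of the 3133 sites, 1670 had peaks on the same single side in all 4 libraries and 181 had peaks on both sides in all 4. Peaks were on 1 side in both WT and on both sides in both KO libraries at 22 sites (0.702%), and the reverse held at 14 (0.447%). All of these counts but the first were the same over the flanking sites, of which 1668 had peaks on the same single side throughout. Without WT replicate 1 the 2 changes numbered 88 and 20 of the 3133 sites, 32 and 78 without WT replicate 2, 48 and 32 without KO replicate 1, and 42 and 24 without KO replicate 2. The first change was possible at the 1888 sites with peaks on the same single side in both WT libraries, of which the 22 are 1.17%. The second was possible at the 223 sites with peaks on both sides in both WT libraries, of which the 14 are 6.28%. That share was 8.16% without WT replicate 1, 17.8% without WT replicate 2, 14.3% without KO replicate 1 and 10.8% without KO replicate 2, and the share of the first change was 4.10%, 1.27%, 2.54% and 2.22% in the same order. Both shares start from the WT calls, so sites with peaks on both sides there could lose a side but not gain one. No share starting from the KO calls was taken. A peak of at least 1 KO library reached 97 further sites that had no WT peak and would otherwise have been flanking, 27 of them in both KO libraries. Within 10000 bp of a WT region, 191 sites lay on a peak of 1 WT library alone and 121 on a peak of both WT libraries, with no KO peak on them. Over all 4081 reproducible sites that overlapped an H3K27ac peak, 63 lay on a peak of each KO library and of neither WT library, and 121 on a peak of each WT library and of neither KO library. The counts of sites lying on a peak were not taken without WT replicate 2.

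The edge of acetylation that faced a flanking site was compared with the opposite edge of the same region. This used 1927 regions called in all 4 libraries that had a flanking site on 1 side and no reproducible Smc1a site within 10000 bp on the other. The inset is the distance of a library's own outermost peak edge from the outermost edge of any library. On the facing side its median was 86 and 112 bp in the WT and 73 and 173 bp in the KO libraries, and on the opposite side it was 96, 116, 63 and 189 bp. The mean of the library medians differed between KO and WT by 24 bp on the facing side (exact permutation test, p = 1) and by 20 bp on the other (exact permutation test, p = 1). The KO libraries differed from each other by more than this on either side.

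The sites with the greatest loss of acetylated length among those whose genotypes did not overlap show what the change consisted of. These were picked for their difference, so no test is given. At chr8:108600352-108601848 the acetylated length within 10000 bp was 10617 and 7958 bp in the WT and 4588 and 2549 bp in the KO libraries. On the left the edge next to the site was kept, at 191 and 226 bp in the WT and 204 and 509 bp in the KO libraries, and some peaks farther out were missing. On the right neither KO library had a peak within 10000 bp. The nearest WT peaks there did not coincide, at 1361 to 2771 bp from the site's centre in replicate 1 and 3068 to 3867 bp in replicate 2. This site lies on the same chromosome as the strongly bound site chr8:108545857-108546992, where the WT values of 3814 and 3550 bp and the KO values of 3781 and 2127 bp overlapped. At chr5:104199687-104200489 the length was 13139 and 9058 bp in the WT and 6771 and 5495 bp in the KO libraries. The nearest peak was at 1056 and 3231 bp in WT but 6337 and 5652 bp in KO, so here the edge facing the site was farther away in both KO libraries.

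At chr11:68044876-68045627 the WT libraries held 3918 and 5698 bp of acetylation and the KO libraries none, and the nearest KO peaks were 24794 and 22795 bp away. At chr16:55925008-55925772 the values were 7613 and 7406 bp in the WT and 3050 and 2563 bp in the KO libraries, with the nearest peak at 2387 and 2540 bp in the WT and 6950 and 7437 bp in the KO libraries. The site chr5:149851154-149852026 went from 10477 and 9698 bp in WT to 6091 and 4853 bp in KO libraries, and the nearest peak from 2204 and 2074 bp to 5861 and 6868 bp. All 5 of these sites had Smc1a percentiles below the flanking median in replicate 1 (40.9 to 65.3). In replicate 2, 4 of them did (37.2 to 46.4), and the site chr5:149851154-149852026 lay above it at 66.9.

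The greatest gain was at chr5:31900797-31902126, with 4355 and 3966 bp in the WT and 7849 and 9081 bp in the KO libraries. Acetylation in WT lay to the right of the site alone. Both KO libraries had in addition a peak on the left, which brought the nearest peak from 2048 and 1859 bp in WT to 716 and 646 bp in KO. At chr3:89260431-89261264 the length was 5302 and 4596 bp in the WT and 8528 and 7778 bp in the KO libraries, while the nearest peak stayed between 610 and 1144 bp in all 4 libraries. At chr15:78417308-78418416 WT replicate 2 held 2622 bp, WT replicate 1 held 7216 bp and the KO libraries 8666 and 7527 bp, so the difference of the means there rests on WT replicate 2. At chr2:77098071-77098718 the values were 3461 and 5240 bp in the WT and 8228 and 6737 bp in the KO libraries, and at chr7:51776841-51777701 they were 2263 and 2346 bp in the WT and 5150 and 4745 bp in the KO libraries. In the order named, the Smc1a percentiles of these sites were 67.8, 85.5, 84.6, 45.9 and 88.1 in replicate 1. In replicate 2 they were 5.08, 26.7, 51.3, 46.9 and 69.4. No link between score and loss or gain is read from sites picked this way.

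**Figure D5:**
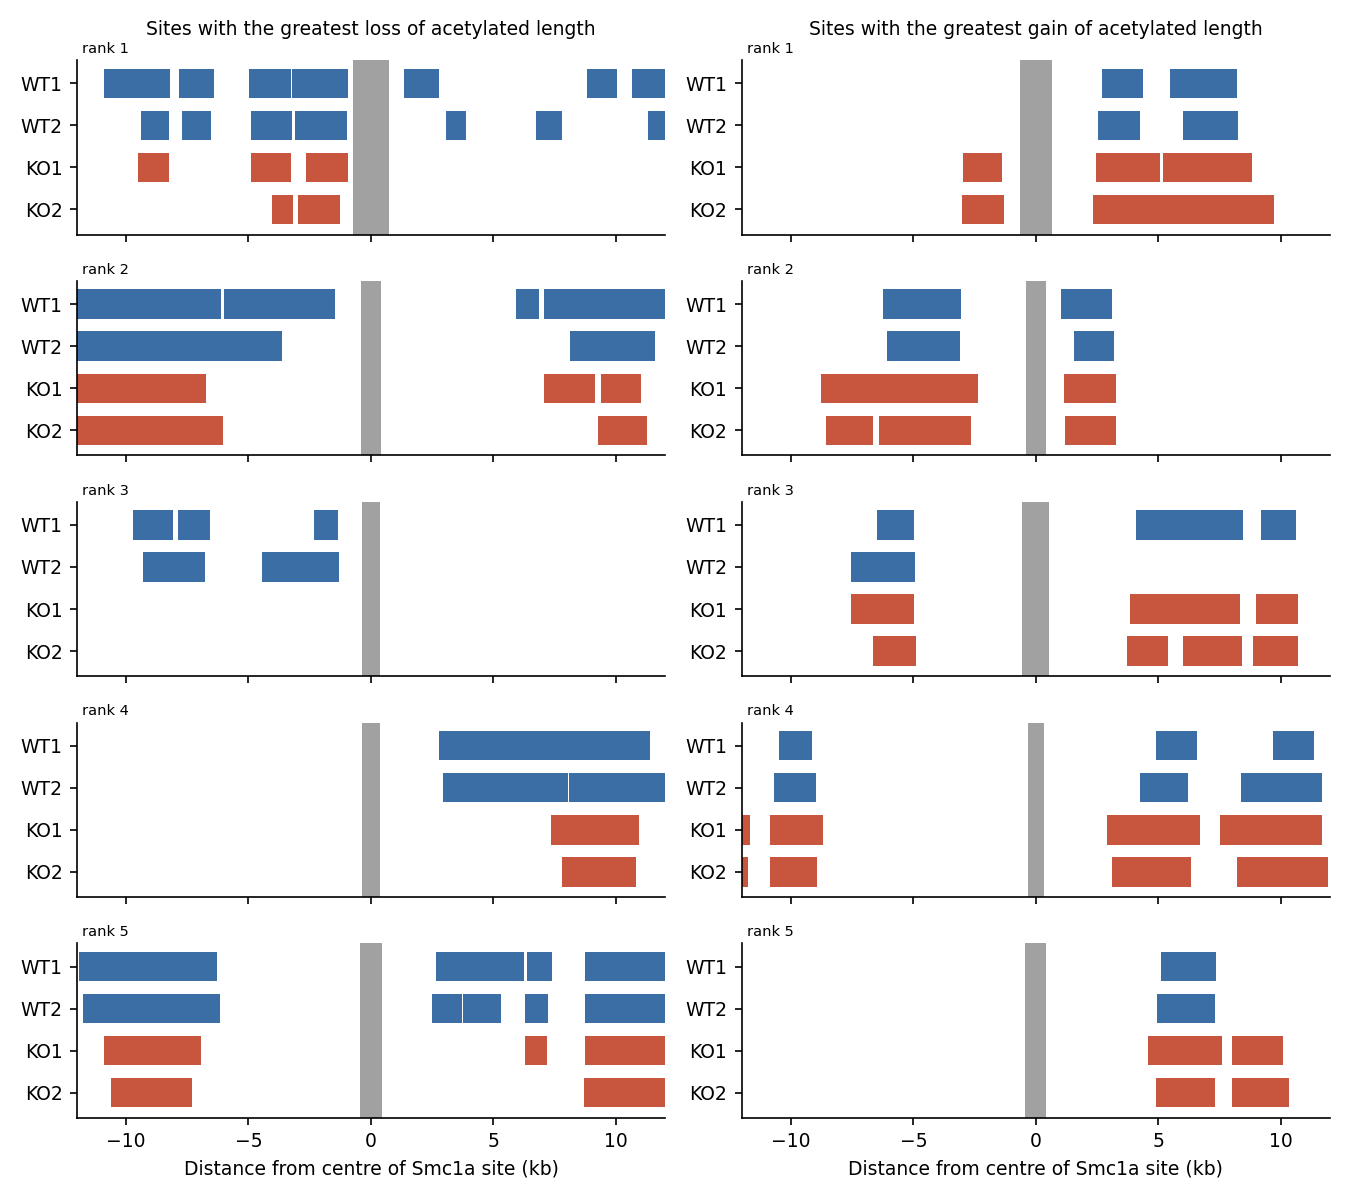
H3K27ac peaks of each library (blue WT, red KO) around the flanking Smc1a sites (grey band) with the 5 greatest losses (left) and the 5 greatest gains (right) of acetylated length, in order of rank, by distance from the centre of the site (x axis, kb). At loss rank 3, chr11:68044876-68045627, no KO peak is drawn, and at gain rank 1 both KO libraries have a peak on the left of the site where WT has none.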

How the data were processed

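Bowtie 0.12.8 and the build mm9 are named for the alignment, per the submitters' processing notes. The deposited lists give start and end positions and other values of MACS-named peaks, called in each library by the authors. The last column is the authors' score, which was used only to rank and filter peaks within a list. Not given in the sources used here: caller settings, control and read filters. Input libraries (5) were not analysed here. Neither sequences nor gene annotation of mm9 were used here, so sites are given by coordinates counted from 1 and the cell type was not checked against marker genes.

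Interval work was done in Python 3.11.15 (numpy 2.4.6, pandas 2.3.3). Overlapping or touching peaks were merged, and 1 shared bp counted as overlap. Interval functions were tested on simulated data, and bedtools 2.31.1 gave the same 2341 flanking sites. Genotypes were compared over libraries by exact permutation, two-sided, 2 against 2. Replicate numbers are shared by the genotypes, but differences between replicates correlated at 0.0402 over 3133 sites, so no pairing was assumed. Intervals are Wilson 95% intervals (scipy 1.17.1). Named sites are the 5 with the highest mean Smc1a score percentile, the 5 longest, the 5 in the narrowest gaps, 3 on either side of the distance threshold, and the 5 greatest losses and 5 greatest gains among sites whose genotypes do not overlap. The flanking sites, lists and tests were chosen with earlier results of these data known. Alternatives were a stricter score threshold, equal peak numbers, a 50% overlap, distances of 5000 and 20000 bp, merging within 1000 bp, scaling to covered length, each library left out and the replicate number as a block.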

Additional observations from a re-analysis of the deposited data

How the results depend on the processing

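Across 14 results and 163 alternatives, 118 kept their direction or moved little, 38 moved and 7 turned sign. The counts of sites with less or more acetylated length among those chosen on all libraries alike, the densities and the score differences between classes were added after seeing the data. With a flanking distance of 5000 bp, 288 of 1231 flanking sites had less and 179 more acetylated length in both KO libraries. With 20000 bp these were 817 and 727 of 4093. Among the sites chosen on all libraries alike, 290 had less and 343 more with 5000 bp. With 20000 bp these were 827 and 1144, so the balance turned with the way the sites were chosen. Equal peak numbers gave 5.02% of neighbouring WT regions without a KO peak and turned the difference in mean acetylated length to -53.3 bp. Scaling to covered length made the latter 81.3 bp, with both KO values above both WT values. Leaving out 1 library at a time gave 2374 to 3730 flanking sites, 621 to 1531 with less and 418 to 881 with more acetylated length, and 3.60% to 14.4% of neighbouring regions without a KO peak, as fewer lists then had to hold a peak. The differences between genotypes ran from -1.66 to 5.53 points for sites near a peak, from -1020 to 229.75 bp for the median distance, from -2.47 to 4.0 points for peaks on both sides and from -217 to 292 bp for acetylated length. All 4 turned sign without WT replicate 2, and acetylated length also without KO replicate 1 (-117 bp) and without Smc1a replicate 1 (-6.14 bp); the cause was not tested. The median score percentile of flanking sites ran from 55.2 to 67.7 with 1 library left out and reached 74.5 with the upper 75% of each list by score, and it exceeded that of sites up to 100000 bp away in 11 of 11 alternatives. With the replicate block the differences were the same by construction (2.02 points, -420 bp, 0.814 points and 41.4 bp; exact sign-flip test, p = 1 each). Peak lists hold no reads, so depth is unknown.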
